A study of Mus musculus with 2 samples.

Results

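Vitamin A enters the intestinal epithelium as retinol and as provitamin A carotenoids, and 8 genes of its uptake, storage, oxidation and sensing (Rbp2, Lrat, Bco1, Scarb1, Isx, Aldh1a1, Rdh7 and Rara) were followed across the cell types of the mouse intestine. They were chosen by symbol out of 32285 genes listed for each of 2 single-cell libraries, and each symbol had 1 row. One library came from wild-type (WT) mice and the other from MG53-TG littermates, which overexpress MG53 (Trim72), a membrane repair protein, in the whole body. Both groups received dextran sulfate sodium (DSS, 2.5% in the drinking water), an agent that injures the gut lining, and cells were taken on day 7. Crypts were dissociated and sorted for cells that carried the epithelial surface protein EpCAM and excluded the dead-cell dye 7-AAD (the study describes the analysed cells as also lacking the leukocyte protein CD45), and RNA was tagged at its 3′ end in droplets so that each molecule is counted once as a unique molecular identifier (UMI). The study names several mice of each genotype for this experiment, but the libraries do not separate them, so genotype, library and any handling of the library cannot be told apart. No test between the genotypes was possible with 1 library of each. The 95% intervals below are exact, the limit given for a count of 0 is that of 3 counts, and both cover counting error only.

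Dietary carotenoids are taken up through scavenger receptor B1 (Scarb1) and cleaved to retinal by beta-carotene oxygenase (Bco1). Retinol and retinal are carried inside the enterocyte by cellular retinol-binding protein 2 (Rbp2), and retinol is stored as retinyl esters by lecithin retinol acyltransferase (Lrat) for export in chylomicrons. Short-chain dehydrogenases such as Rdh7 interconvert retinol and retinal, retinal dehydrogenases such as Aldh1a1 make retinoic acid, and retinoic acid acts on nuclear receptors such as Rara. The homeodomain protein ISX is induced by retinoic acid and represses Bco1 and Scarb1, which closes a feedback loop on carotenoid uptake.

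After barcodes with fewer than 1354 UMIs, fewer than 200 genes or over 25% mitochondrial UMIs and likely doublets were left out, 6963 WT and 4941 MG53-TG cells remained, and 8 barcodes occurred in both. The mitochondrial limit alone removed 33.7% of the WT and 46.1% of the MG53-TG barcodes that passed the other minimums. Of the kept cells, epithelial clusters took 6119 from WT, with 106041896 UMIs in all, and 4606 from MG53-TG, with 89935487. Trim72 stood at 0.594 CPM (UMIs of a gene per 1000000 UMIs of all genes in the same cells) in the WT and 50.8 CPM in the MG53-TG epithelium. Despite this sort, 573 WT and 229 MG53-TG cells were T cell-like, and these serve below as cells that should lack most of these genes. A further cluster of 225 WT and 88 MG53-TG cells passed 9 of 9 T cell markers but was shallow (medians of 2506 and 3035 UMIs) and stayed unnamed, so the cells with T cell markers were more than those counted here. The labelled tissue is intestine, and of a list of 6 colon genes Car1 and Hoxb13 were at 0 in all epithelial cells of both libraries, while Slc26a3 was at 168 CPM in WT and 154 in MG53-TG enterocyte-like cells. No cluster was named colonocyte-like.

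The stretches before the start sites of Rbp2, Bco1 and Isx are shown because these genes had 3 different cell type patterns: absorptive, enteroendocrine, and broad but low in enteroendocrine-like, Paneth-like and tuft-like cells. Each is the 250 bases before the RefSeq start on the GRCm38.p6 build, at chr9:98490287-98490536 (plus strand, Rbp2), chr8:117095615-117095864 (plus strand, Bco1) and chr8:74872924-74873173 (plus strand, Isx). Capitals mark matches, on either strand, to AGGTCA (the hexamer that nuclear receptors such as the retinoic acid receptors bind), to TAATTA (a homeodomain core) or to TTTATG (a CDX core).
Rbp2: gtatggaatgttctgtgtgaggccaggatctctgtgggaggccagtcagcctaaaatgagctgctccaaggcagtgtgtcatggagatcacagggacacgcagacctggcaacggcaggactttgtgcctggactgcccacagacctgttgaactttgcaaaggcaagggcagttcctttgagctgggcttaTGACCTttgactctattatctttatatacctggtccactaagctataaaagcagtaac
Bco1: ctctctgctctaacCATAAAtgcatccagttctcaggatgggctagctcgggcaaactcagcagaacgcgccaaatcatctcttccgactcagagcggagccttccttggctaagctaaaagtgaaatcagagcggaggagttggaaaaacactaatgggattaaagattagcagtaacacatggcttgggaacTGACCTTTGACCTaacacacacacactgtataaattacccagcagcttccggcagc
Isx: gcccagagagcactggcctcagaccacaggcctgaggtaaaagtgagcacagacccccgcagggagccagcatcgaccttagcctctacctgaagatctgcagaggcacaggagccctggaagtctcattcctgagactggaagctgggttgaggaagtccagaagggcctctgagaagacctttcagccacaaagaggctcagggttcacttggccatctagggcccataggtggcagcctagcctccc
Bco1 held 2 matches to AGGTCA on the opposite strand, 56 to 51 and 49 to 44 bases before the start, and together they spell AGGTCANAGGTCA, a direct repeat with a gap of 1 base. This longer motif was added after the matches were seen, it overlaps both hexamers, and 11 of 32851 mouse promoters of the same length (0.0335%) hold it. Rbp2 had 1 match to AGGTCA, 58 to 53 bases before its start, against 14.0% of all promoters with at least 1, and Bco1 had 1 match to TTTATG, against 10.8%. No match to TAATTA was found in the 7 members with an entry in the promoter table, against 4.84% of all promoters, and the Isx, Lrat, Aldh1a1, Rdh7 and Rara stretches held none of the searched letters. These are matches of letters, not sites.

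Rbp2, the carrier that holds retinol and retinal in the absorptive cell, was highest in enterocyte-like cells and high over the absorptive lineage. The gene lies on chromosome 9 (GRCm38, 98486115 to 98509781, plus strand). Enterocyte-like cells held 9979 CPM in WT and 11482 in MG53-TG, absorptive progenitor-like cells 1347 and 2536, and stem-like cells 324 and 471. In each library these 3 levels were separated by more than their counting intervals, with each step from stem to absorptive cells higher than the last. Enteroendocrine-like cells, which make gut hormones, came between progenitors and stem cells with 1134 and 1235 CPM. Goblet-like cells held 186 and 155, Paneth-like cells 220 and 255, tuft-like cells 71.2 and 49.7, and the T cell-like cells 110 and 81.3. The lower levels sit close to those of T cells, and WT barcodes with fewer than 100 UMIs, which mostly hold no cell, carried Rbp2 at 1648 CPM. The part of free RNA in these levels was not tested.

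Beside Rbp2, enteroendocrine-like cells held less Fabp1 than enterocytes did, and less Rdh7, while the proportion of Aldh1a1 was not separated by counting error. For every 100 Rbp2 UMIs, WT enteroendocrine-like cells held 40.3 UMIs of Fabp1, the abundant enterocyte fatty acid carrier (interval 37.8 to 43.0), against 136 in enterocyte-like and 123 in T cell-like cells. In MG53-TG the corresponding values were 84.5, 151 and 189. For Rdh7, enteroendocrine-like cells held 0.642 (0.359 to 1.06) in WT and 0.491 (0.245 to 0.879) in MG53-TG, against 1.86 and 1.78 for enterocytes. The Aldh1a1 values for the same 3 types were 1.71 (1.22 to 2.33), 1.80 and 3.08 in WT, the last from 6 UMIs, and for MG53-TG enteroendocrine-like cells the value was 1.52 (1.05 to 2.12), against 2.001 for enterocytes. Thinned to 1354 UMIs a cell, 49.4% of WT and 44.4% of MG53-TG enteroendocrine-like cells had an Rbp2 UMI, against 14.0% and 10.5% of T cell-like cells. Without thinning these shares were 71.7% and 77.2% against 26.4% and 25.3%, at median depths of 6858 and 9727 UMIs against 2828 and 3562.

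Single cells decided the Rbp2 level in some secretory types. In MG53-TG Paneth-like cells, the antimicrobial cells of the crypt base, 2 of 195 cells held 50% of the Rbp2 UMIs and 1 cell held 38.0%. Without the 5 highest cells the Paneth-like level was 130 CPM in WT and 36.2 in MG53-TG, the opposite order from the full sums. In WT secretory progenitor-like cells 10 of 531 cells held 50%, whereas 161 of 980 WT enterocyte-like cells did.

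Rdh7, which oxidizes retinol to retinal and is on chromosome 10 (127884028 to 127888817, minus strand), followed the same cells. Its level was 186 CPM in WT and 204 in MG53-TG enterocyte-like cells, 27.4 and 36.0 in absorptive progenitor-like cells, and 11.1 and 9.92 in stem-like cells. The other epithelial types and the T cell-like cells lay between 1.15 and 7.28, and their intervals overlapped with that of the next type in at least 1 library. The related genes Rdh9 and Rdh16 stood at 24.9 and 14.8 CPM in WT enterocyte-like cells and at 23.2 and 12.3 in MG53-TG, with Rdh16f2 at 6.22 and 4.64. Rdh1 had 17 and 12 UMIs and Rdh19 0 and 1 in the whole epithelium. None of the 470 windows of 31 bases in the last 500 bases of the Rdh7 transcript occurred in any of these 5 paralogs, so reads from this end would not be split between them.

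Aldh1a1, the retinal dehydrogenase that makes retinoic acid, lies on chromosome 19 (20492715 to 20643465, plus strand) and overlaps 1 annotated gene of the opposite strand at an exon, C730002L08Rik. It was at 180 CPM in WT and 230 in MG53-TG enterocyte-like cells, at 29.9 and 57.5 in absorptive progenitor-like cells, and at 7.96 and 12.9 in stem-like cells. Enteroendocrine-like cells held 19.4 and 18.8, above the stem-like cells beyond counting error in WT but not in MG53-TG. Goblet-like, Paneth-like, secretory progenitor-like and tuft-like cells held between 1.15 and 4.40. Aldh1a7, its neighbour in sequence, was at 26.0 and 30.5 in enterocyte-like cells and shared none of 470 windows of 31 bases with the end of Aldh1a1.

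Lrat, which esterifies retinol for storage and lies on chromosome 3 (82892579 to 82903973, minus strand), departed from the other absorptive genes because its level in stem-like cells was not separated from that in enterocytes by counting error. Stem-like cells were at 9.94 CPM in WT and 12.3 in MG53-TG, enterocyte-like cells at 8.36 and 10.3, and absorptive progenitor-like cells at 5.24 and 6.54. Stem-like and enterocyte-like cells overlapped in both libraries, and enterocyte-like and progenitor-like cells in MG53-TG alone. Every other named epithelial type was at 1.53 or below, from 13 UMIs or fewer in each library. Their intervals did not overlap with those of these 3, with 1 exception. WT enteroendocrine-like cells (3 UMIs, 0.300 to 4.25) overlapped with WT absorptive progenitor-like cells (4.16 to 6.52). The antisense gene Rbm46os overlaps an exon of Lrat on the opposite strand.

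Scarb1 and Bco1, the carotenoid receptor and the cleaving enzyme, had their highest levels in the same cells, and these were not the enterocytes. Bco1 (chromosome 8, 117095854 to 117133720, plus strand) was at 63.1 CPM in WT and 61.2 in MG53-TG enteroendocrine-like cells, from 130 and 111 UMIs. Every other named epithelial type lay between 0.746 and 2.08, enterocyte-like cells with 1.92 and 2.08 among them. A shallow cluster that stayed unnamed, in which 12 of 14 enterocyte markers passed, held Bco1 at 28.0 and 37.1, from 33 and 20 UMIs. Scarb1 (chromosome 5, 125277087 to 125341094, minus strand) was at 88.3 and 55.2 in enteroendocrine-like cells and at 1.38 or below in all the other named epithelial types. Enteroendocrine-like cells held 43.2% (WT) and 40.5% (MG53-TG) of all epithelial UMIs of Bco1 and 76.5% and 62.9% of those of Scarb1, while making up 4.40% and 3.71% of epithelial cells.

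Both genes were present in both enteroendocrine clusters. In the cluster led by Tph1, Chga and Tac1, genes of serotonin-making enterochromaffin cells, Bco1 was at 72.0 CPM in WT and 81.7 in MG53-TG and Scarb1 at 70.7 and 51.1. In the cluster led by the hormone genes Sst, Ghrl, Gip and Cck, Bco1 was at 57.7 and 51.4 and Scarb1 at 99.0 and 57.1. Of 269 WT enteroendocrine-like cells 97 had a Bco1 UMI, 95 a Scarb1 UMI and 33 both, and of 171 MG53-TG cells the numbers were 75, 61 and 30. Of enterocyte-like cells, 22 of 980 in WT had a Bco1 UMI and 8 a Scarb1 UMI, and 23 and 11 of 816 in MG53-TG. None of them had both, but with so few of each this count cannot set the cell types apart. Whether these genes met more often than their separate shares give was not tested in either cell type. At equal depth Bco1 was seen in 8.92% of enteroendocrine-like cells from WT (interval 5.80 to 13.0%) and in 9.94% from MG53-TG (5.90 to 15.4%), and without thinning in 36.1% and 43.9%, against 1 of 573 T cell-like WT cells and 0 of 229 in MG53-TG, which allows a share of up to 1.31% (3 cells). No single cell gave more than 4 of the Bco1 UMIs or 8 of the Scarb1 UMIs in these cells.

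Isx (chromosome 8, 74873173 to 74893506, plus strand), the repressor of both genes, was expressed across the absorptive, goblet and stem cells and was low in enteroendocrine-like, Paneth-like and tuft-like cells. Barcodes with fewer than 100 UMIs in WT held it at 37.8 CPM. Goblet-like cells held 80.9 CPM in WT and 88.1 in MG53-TG, absorptive progenitor-like cells 81.9 and 78.5, enterocyte-like cells 66.1 and 76.5, secretory progenitor-like cells 69.6 and 69.2, and stem-like cells 48.6 and 48.8. Enteroendocrine-like cells held 17.0 and 7.72, Paneth-like cells 10.2 and 5.52, and tuft-like cells 1.91 and 2.49, with T cell-like cells at 4.51 and 3.44. The intervals of the 5 high types and of these 3 low types did not overlap in either library. Low Isx went without high Bco1 in 2 types, as tuft-like and Paneth-like cells held Bco1 at 1.23 CPM or below. Across 9 cell types in both libraries (18 values that share libraries and depth) the correlation of log2 levels was −0.003 between Isx and Bco1 and −0.19 between Isx and Scarb1, a description without a test.

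Rara, the receptor, varied least over the 8 epithelial types, by the ratio of highest to lowest level. On chromosome 11 (98927818 to 98974942, plus strand), it ranged from 5.07 CPM in WT Paneth-like cells to 26.3 in MG53-TG enterocyte-like cells. Enterocyte-like cells held 24.7 and 26.3, tuft-like cells 24.1 and 21.6, and stem-like, absorptive progenitor-like, goblet-like and secretory progenitor-like cells between 14.9 and 19.3, all overlapping their neighbours in the order in at least 1 library. T cell-like cells had 10.7 and 13.7, so Rara did not mark the epithelium.

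**Figure D1:**
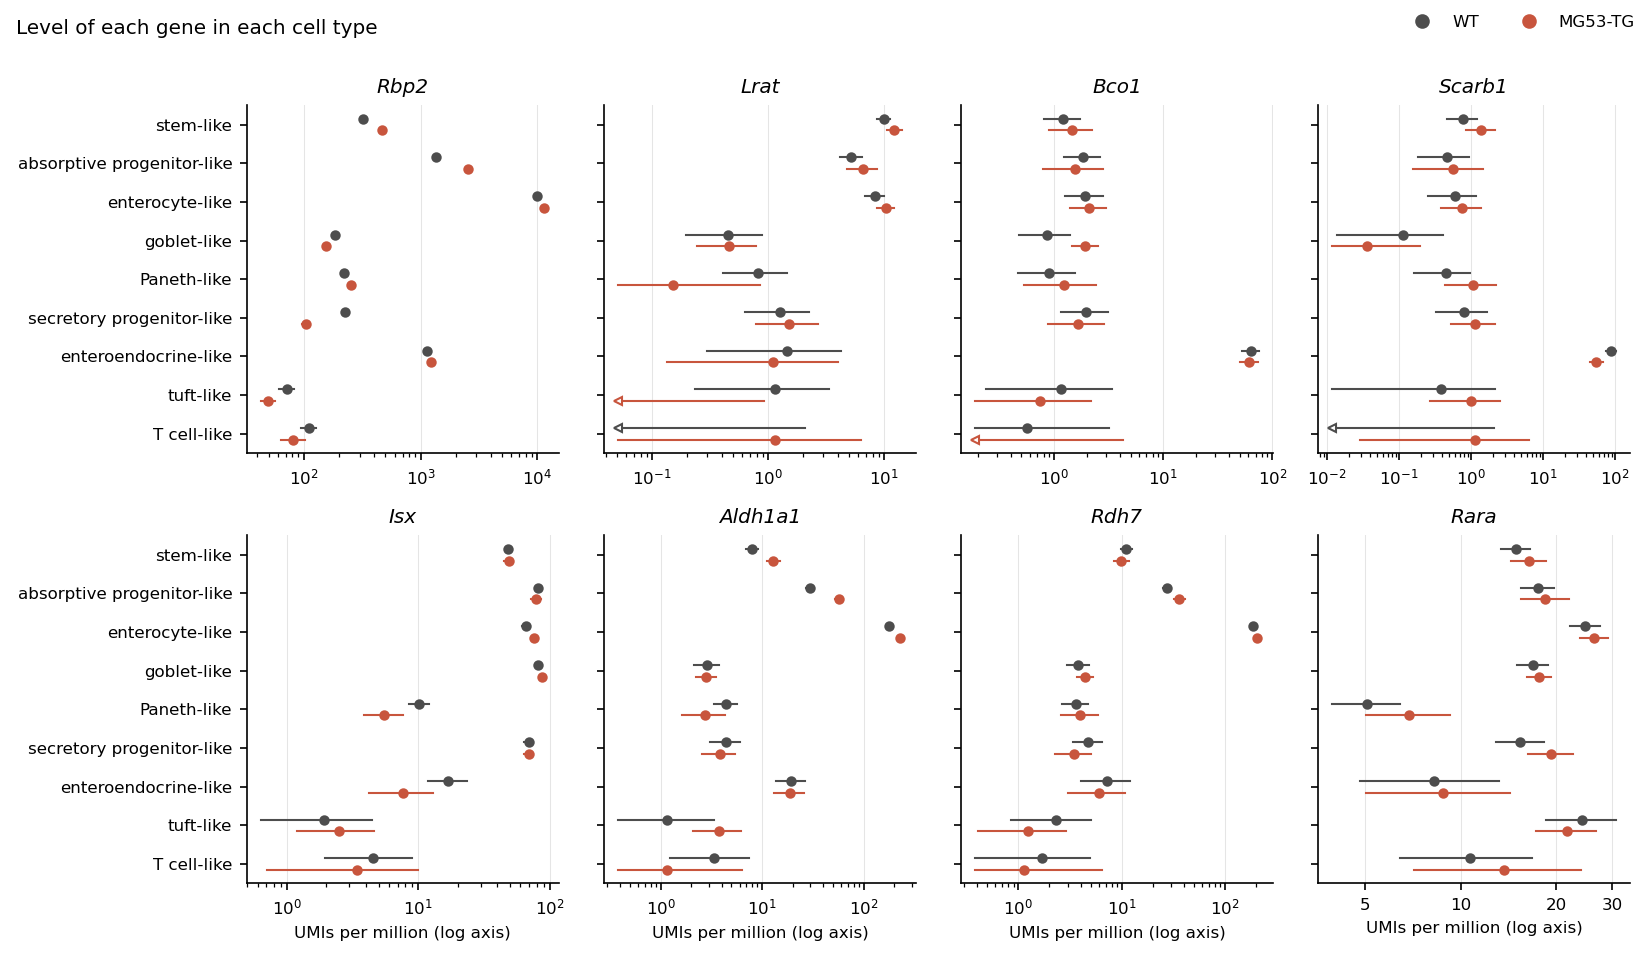
Level of each of the 8 genes in CPM (log axis, different range in each panel) in 8 epithelial cell types and in T cell-like cells, for the WT (grey) and MG53-TG (red) libraries. Points are sums over cells, lines are exact Poisson 95% intervals (counting error only) and open triangles stand for 0 UMIs at the left edge. Bco1 and Scarb1 stand out in enteroendocrine-like cells, Rbp2, Rdh7 and Aldh1a1 in enterocyte-like cells, and Isx is low in 3 of the secretory types.

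The genes closest to each member over the same 18 values separated these patterns. Rbp2 was most like the brush border peptidase Anpep (Pearson r = 0.97), Eci3 and Slc13a1. Aldh1a1 was closest to Maob (r = 0.98), its own relative Aldh1a7 and Eci3, and Rdh7 to Ephx2 (r = 0.98) and Mgam. Lrat was closest to Ces2g (r = 0.96), Slc23a4 and Car13. Bco1 was closest to Flrt1 (r = 0.98), Disp2 and Neto1, Scarb1 to 9330154J02Rik (r = 0.98), the hormone gene Ucn3 and Mrln. Isx was closest to the tight junction gene Cldn15 (r = 0.95), Lrrc59 and Serinc3, and Rara to Ccdc6 (r = 0.95), Tprn and Bak1. Among the members themselves, Aldh1a1 and Rbp2 reached r = 0.97, Aldh1a1 and Rdh7 0.95, and Bco1 and Scarb1 0.95.

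Some other genes of the pathway also had their highest level in enteroendocrine-like cells. Fabp5, which carries retinoic acid among other lipids, was at 2997 CPM in WT and 2879 in MG53-TG enteroendocrine-like cells. Ttr, which carries retinol-binding protein in blood, was at 296 and 222 there, at 209 in goblet-like cells of both libraries and at 140 and 119 in secretory progenitor-like cells. Rbp4, the secreted retinol carrier, falls outside the rule for named genes and was picked after its values were seen, and it stood at 1327 and 1144 in enteroendocrine-like cells against 5.36 or less in the other epithelial types with at least 10 UMIs.

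The members varied among the absorptive clusters, which differ in genes of gut position, villus height and depth together, and these were not separated. Clustering, from which all 56 genes of the pathway list were left out, gave 7 absorptive clusters: 2 led by Gsdmc genes, of which 1 also carried the ileal bile acid carrier Fabp6, one with Fabp1 and Cyp4a10, one with the iron and calcium genes Slc40a1 and S100g, one with Leap2 and Apoc3, one with Plb1 and Enpp7, and one with the ileal genes Slc10a2 and Fgf15, led by the acute phase gene Saa1. These names give genes among the leading 10 by fold, and each gene can be high in more than 1 cluster. The Gsdmc clusters were the absorptive progenitor-like cells. The Slc10a2 cluster was shallow (median of 3339.5 UMIs a cell in WT) and stayed unnamed. The Fabp1 and Cyp4a10 cluster also stayed unnamed, as its leading 10 genes held an enterocyte marker, Fabp1, and no progenitor marker, although 3 of 7 progenitor markers passed in it. Rdh7 was at 288 CPM in WT and 269 in MG53-TG in the Leap2 cluster and at 9.33 and 13.0 in the Slc10a2 cluster. Rbp2 was at 13176 and 13482 in the first and at 1696 and 2053 in the second. Aldh1a1 differed less, at 209 and 281 against 120 and 91.0, but in the Slc10a2 cluster 1 MG53-TG cell held 13 of 49 UMIs, and without the 5 highest cells of each library that cluster was at 78.0 and 35.3.

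Bco1 and Isx took other courses along these clusters. Bco1 was at 28.0 CPM in WT and 37.1 in MG53-TG in the Slc10a2 cluster, from 33 and 20 UMIs, at 6.38 and 6.23 in the Enpp7 cluster, and at 3.86 or below in the remaining 5. The cluster with Fabp6, in which 6 distal small intestine genes also had a high sum (7585 and 4832 CPM against 9423 and 7295 in the Slc10a2 cluster), held Bco1 at 3.86 and 2.13, so high distal genes did not go with high Bco1 in both. Isx was at 105 and 79.8 in the Slc10a2 cluster and at 54.0 and 71.8 in the Leap2 cluster, so the absorptive cells with the most Bco1 were not low in Isx. Lrat lay between 4.63 and 14.0 in the other 6 clusters and at 9.33 and 0 in the Slc10a2 cluster, where 0 UMIs in MG53-TG allow a level of up to 5.57 (3 UMIs).

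**Figure D2:**
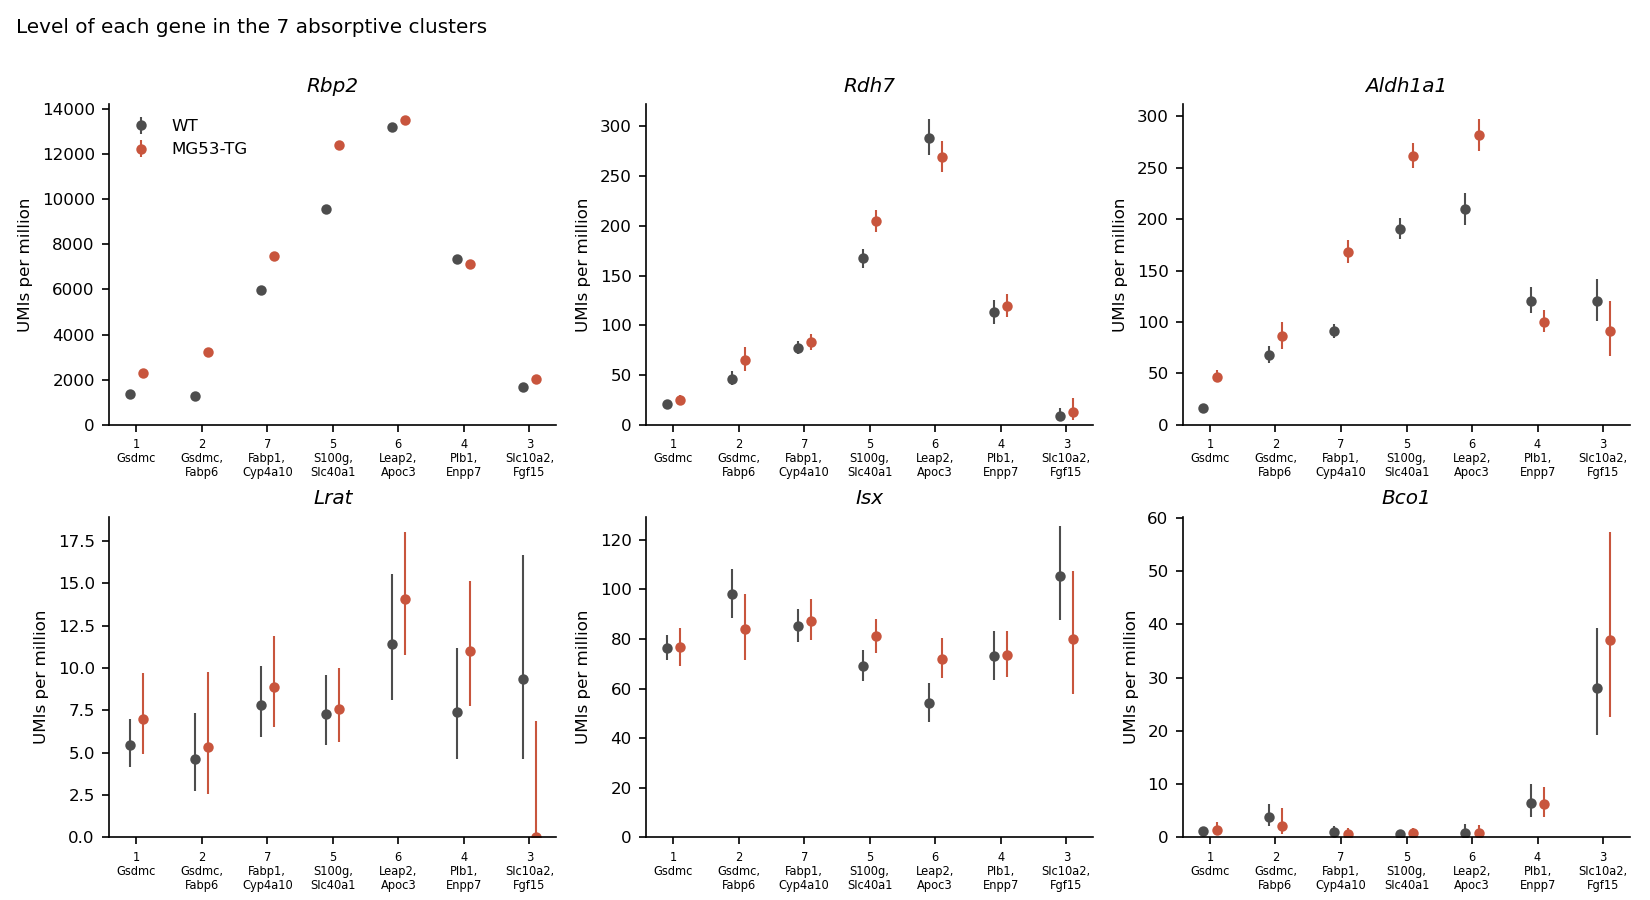
Level of 6 genes in CPM (linear axes from 0) in the 7 absorptive clusters, each with its number and leading genes, for WT (grey) and MG53-TG (red). Points are sums over the cells of a cluster and lines are exact Poisson 95% intervals. Rbp2 and Rdh7 peak in the Leap2 cluster, and Bco1 is highest in the Slc10a2 cluster. Aldh1a1 in the Leap2 cluster (209 in WT and 281 in MG53-TG) is not separated by counting error from the Slc40a1 cluster (191 and 261).

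Summed over all epithelial cells, the 8 members differed little between the genotypes. A log2 ratio of MG53-TG over WT was called where it passed 1.5-fold with at least 30 UMIs over both libraries. None of the 8 members was called, against 9.8% of 14656 genes. Rbp2 was at 2078 CPM in WT and 2653 in MG53-TG (log2 ratio 0.35). Aldh1a1 had the largest difference of the 8, 38.6 against 55.4 (0.52, interval 0.46 to 0.58). Rdh7 was at 37.4 and 44.1 (0.24), Isx at 59.3 and 66.0 (0.15), and Rara at 16.3 and 18.2 (0.16). The intervals of Lrat, 5.08 and 4.96 (−0.22 to 0.15), and of Bco1, 2.84 and 3.05 (−0.14 to 0.34), included 0. Scarb1 was lower in MG53-TG, 2.24 against 1.77 (−0.34, interval −0.64 to −0.05). The median log2 ratio was 0.16 over the members and 0.09 over all genes tested. Under 2 of the alternatives a member passed 1.5-fold, Aldh1a1 with a mitochondrial limit of 10% (0.60) and Scarb1 with all cells thinned to equal depth (−0.80).

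These sums weigh each cell type by its UMIs, which is to say by the number and depth of its cells, and goblet-like cells made up 21.1% of WT and 35.6% of MG53-TG epithelial cells, stem-like cells 16.8% and 10.9%, and absorptive progenitor-like cells 13.6% and 6.82%. Given equal weight in each named type, Isx had a mean log2 ratio of −0.17, Rdh7 −0.11 and Scarb1 0.29, each of the opposite sign to its sum, and Rbp2 one of 0.01, whereas Aldh1a1 kept 0.34. These means had no minimum beyond 1 UMI in each library, so types with few UMIs counted fully. Tuft-like cells entered the Aldh1a1 mean with 1.70, from 3 and 15 UMIs. Scarb1 had 6 and 7 UMIs in Paneth-like cells (1.26) and 1 and 4 in tuft-like cells, while enteroendocrine-like cells were at −0.68. The differences within cell types are therefore given next.

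In absorptive progenitor-like cells, the 2 Gsdmc clusters, Aldh1a1 and Rbp2 were higher in MG53-TG. Aldh1a1 was at 29.9 CPM in WT (456 UMIs) and 57.5 in MG53-TG (404 UMIs), 1.92-fold higher in MG53-TG (log2 0.94, interval 0.75 to 1.14). Rbp2 was 1.88-fold higher (0.91, 0.88 to 0.94). The other members tested there were not called, with Rdh7 at 0.39 (0.16 to 0.62, and from −0.001 to 0.71 in the alternatives), Bco1 at −0.23 (−1.38 to 0.82, from 28 and 11 UMIs), Lrat at 0.32 (−0.24 to 0.86), Isx at −0.06 (−0.21 to 0.09) and Rara at 0.08 (−0.23 to 0.39). So 2 of 7 members tested were called higher and none lower, against 4.27% of 10668 genes called higher and 3.83% lower. After thinning, 3.84% of the WT progenitors (2.64 to 5.38%) and 6.69% of those from MG53-TG (4.19 to 10.04%) had an Aldh1a1 UMI, intervals that overlap, and 29.4% and 47.1% before it, against 3 of 573 T cell-like cells (0.524%) in WT and 0 of 229 in MG53-TG (up to 1.31%) after it. Rdh7 was seen in 4.20% and 3.82% after thinning.

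The size of the Aldh1a1 difference was unequal between these clusters. In the Gsdmc cluster without Fabp6 the level was 16.8 CPM in WT and 47.0 in MG53-TG (log2 1.48, interval 1.21 to 1.77), and in the one with Fabp6 68.1 and 86.1 (0.34, 0.05 to 0.62), within 1.5-fold. Rbp2 had log2 ratios of 0.74 in the first (1372 and 2290) and 1.33 in the second (1274 and 3210). In the unnamed Fabp1 and Cyp4a10 cluster, 352 WT and 187 MG53-TG cells, Aldh1a1 was at 91.1 and 168 (0.88, 0.74 to 1.03), and an Aldh1a1 UMI was seen after thinning in 9.09% (6.30 to 12.6%) and 23.0% (17.2 to 29.7%) of the cells, 59.9% and 86.1% before it. Rbp2 was at 5991 and 7461 there (0.32), within 1.5-fold, and Rdh7 at 77.7 and 83.2 (0.10). Aldh1a7 was at 7.01 and 12.7 in absorptive progenitor-like cells (0.85, 0.43 to 1.27). Retsat, which saturates retinol, was at 87.3 and 150 (0.78, 0.66 to 0.90). Rdh9 was at 2.16 and 1.56 from 33 and 11 UMIs, with an interval that included 0.

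Some genes of gut position differed alongside. The 8 genes of a proximal small intestine list summed to 4072 CPM in WT and 7714 in MG53-TG absorptive progenitor-like cells, Fabp1 alone to 3646 and 7122, while the 6 genes of a distal list summed to 2214 and 1516, with Fabp6 at 1685 and 1010.4. Each sum was mostly that 1 gene. Of the other proximal genes Onecut2 (105 and 141), Creb3l3 (207 and 317), Apoa4 (49.9 and 74.4) and Gata4, a transcription factor (37.4 and 43.7), were higher in MG53-TG, Slc40a1 (22.9 and 11.2) was lower, and Lct (4.39 and 4.55) differed little. Distal Slc10a2 (29.0 and 25.2) and Nr1h4 (84.4 and 71.3) were lower, and Slc51a (272 and 260) and Slc51b (143 and 147) differed little. In the Fabp6 cluster the proximal list was at 2580 and 7659 and the distal list at 7585 and 4832. The summed 14 enterocyte markers, Fabp1 among them, were at 7815 and 12907 in the progenitor-like cells. Among the cells without a Fabp6 UMI, 557 of 833 in WT and 238 of 314 in MG53-TG, the Aldh1a1 log2 ratio was 1.29 and that of Rbp2 0.78, both higher in MG53-TG. The part of the enterocyte markers in these differences was not tested.

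Enterocyte-like cells had no called member among 7 tested, against 6.96% of 10527 genes. Aldh1a1 was at 180 and 230 CPM (log2 0.35, interval 0.28 to 0.43), Rbp2 at 9979 and 11482 (0.20), Isx at 66.1 and 76.5 (0.21, 0.08 to 0.34), Rdh7 at 186 and 204 (0.13, 0.06 to 0.21), and Lrat, Bco1 and Rara had intervals that included 0. In the Enpp7 cluster Aldh1a1 was the other way, 121 against 100 (−0.27, −0.49 to −0.05). In stem-like cells Aldh1a1 was called, 7.96 against 12.9 (0.69, 0.40 to 0.99), but 1 MG53-TG cell held 32 of its 187 UMIs there, and without the 5 highest cells of each library the levels were 6.60 and 8.13, within 1.5-fold. Scarb1 passed the fold with an interval that included 0 (0.81, −0.17 to 1.80, from 19 and 20 UMIs), against 3.46% of 11660 genes called higher and 2.18% lower. That cell was in the cycling cluster, where the levels were 10.4 and 19.3 with all cells (0.90, 0.56 to 1.24) and 7.93 and 10.8 without the 5 highest, again within 1.5-fold. The other stem-like cluster was at 4.97 and 4.81 (−0.05, −0.73 to 0.62).

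Enteroendocrine-like cells had 2 of 6 members tested called lower in MG53-TG, Scarb1 and Isx, against 5.9% of 9678 genes called lower and 4.8% higher. Scarb1 was at 88.3 CPM in WT (182 UMIs) and 55.2 in MG53-TG (100 UMIs), a log2 ratio of −0.68 (−1.05 to −0.32). The difference was −0.79 (−1.24 to −0.36) in the peptide hormone cluster and −0.47 (−1.16 to 0.20) in the serotonin cluster. The share with a Scarb1 UMI after thinning was 13.0% in WT (9.23 to 17.6%) against 8.19% in MG53-TG (4.55 to 13.4%), intervals that overlap, and 35.3% and 35.7% before it. T cell-like cells had none after thinning, which allows up to 0.524% in WT and 1.31% in MG53-TG. In the same cells the 8 summed goblet markers were at 9656 CPM in WT and 17303 in MG53-TG, the 14 enterocyte markers at 3406 and 4287 and the 8 Paneth markers at 1985 and 881, and their part in the Scarb1 difference was not tested. Bco1 differed by −0.04 (−0.42 to 0.33). Rbp2 differed by 0.12 (0.04 to 0.21), but 1 MG53-TG cell held 15.7% of its UMIs, and without the 5 highest cells of each library the order turned, with 964 and 860. Isx was at 17.0 and 7.72 (−1.14, −2.15 to −0.21) from only 35 and 14 UMIs. Its ratio was −0.12 at Leiden resolutions 0.5 and 2 and with the pathway genes kept for clustering, and 0.20 where the libraries were clustered separately, so this call depended on which cells were taken as enteroendocrine.

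The calls in the remaining types rested on few UMIs, few cells or unequal clusters. Bco1 in goblet-like cells was at 0.849 and 1.92 CPM (1.17, 0.33 to 2.11, 15 and 54 UMIs), the only one of 6 members tested that was called there, against 2.72% called higher and 2.78% lower. Paneth-like cells had Isx at 10.2 and 5.52 (−0.89, −1.46 to −0.35) and Aldh1a1 at 4.40 and 2.76 (−0.67, −1.52 to 0.11), 2 of 5 tested, against 7.32% called lower and 14% higher. The 2 Paneth-like clusters held 239 and 90 cells in WT and 98 and 97 in MG53-TG, and Isx was at 8.21 and 1.88 in the first (−2.13, 98 and 9 UMIs) and at 26.3 and 15.6 in the second (−0.75). Secretory progenitor-like cells had Rbp2 at 225 and 104 (−1.11), 1 of 6 tested, against 2.97% called lower and 6.28% higher, and 10 of the 531 WT cells held 50% of its UMIs. Its 2 clusters went opposite ways, the larger one at 254 and 93.5 (−1.44) and the cycling one at 80.5 and 125 (0.64, 0.33 to 0.96), with 471 and 60 cells in WT and 292 and 104 in MG53-TG. In the cycling one 3 of the 104 MG53-TG cells held 50% of the Rbp2 UMIs, and without the 5 highest cells of each library it was at 41.6 and 48.9, within 1.5-fold. With Leiden resolution 0.5 the Rbp2 log2 ratio of secretory progenitor-like cells was 0.65. Tuft-like cells had 2 members with 30 UMIs, Rbp2 and Rara, and neither was called, against 9.6%.

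**Figure D3:**
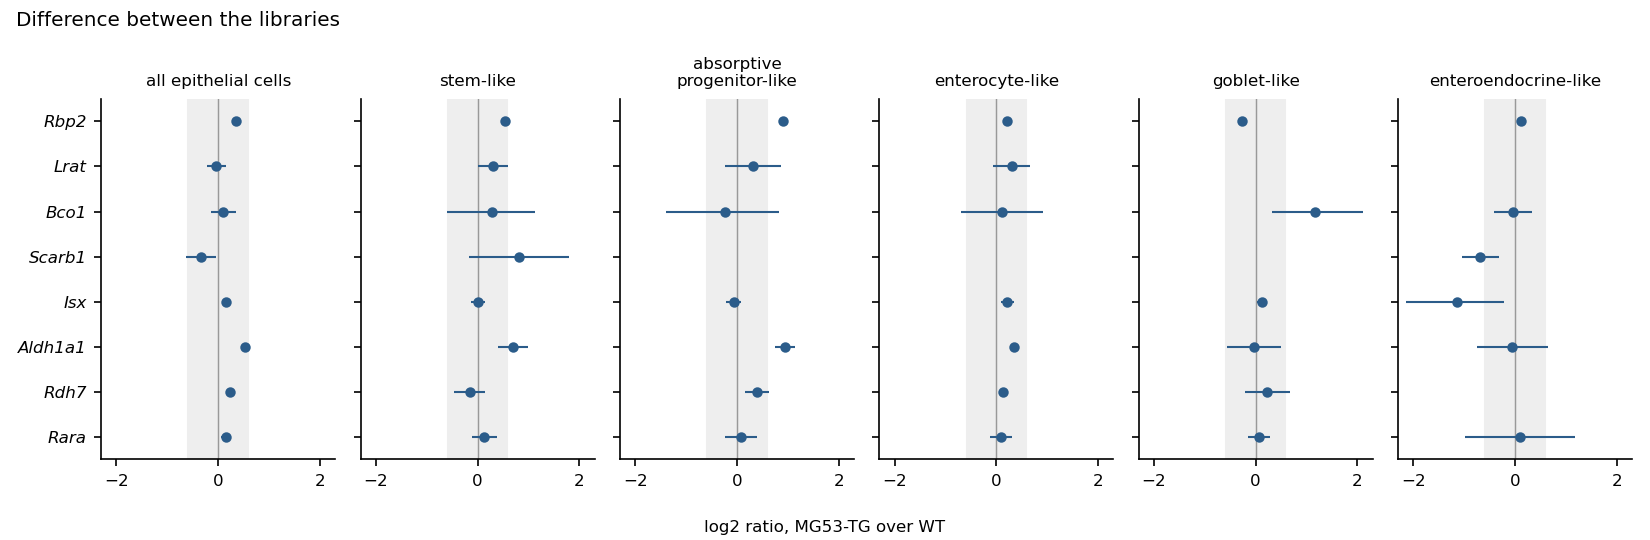
Log2 ratio of MG53-TG over WT for the members with at least 30 UMIs over both libraries, in all epithelial cells and in 5 cell types. Lines are exact conditional binomial 95% intervals (counting error only, 1 library per genotype), and the grey band marks ratios within 1.5-fold. Aldh1a1 and Rbp2 lie outside the band in absorptive progenitor-like cells, Scarb1 and Isx in enteroendocrine-like cells, and no member does in all epithelial cells or in enterocyte-like cells.

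The wider vitamin A pathway list, 56 genes that include the members, moved as little in the epithelial sum. Of its genes 44 had at least 30 UMIs and 3 had none. One was called higher, the receptor Rarg at 0.406 and 0.856 CPM (43 and 77 UMIs), against 6.8% of all genes, and one lower, the retinal dehydrogenase Aldh1a3 at 0.754 and 0.411 (80 and 37 UMIs), against 3%. The median log2 ratio was 0.03 over these 44 genes, with 23 above 0 and 21 below. By role, 6 of 6 uptake genes, 9 of 10 binding and esterification genes, 20 of 22 oxidoreductases, 3 of 5 retinal dehydrogenases, 1 of 4 catabolic genes, 1 of 3 retinoic acid binding proteins and 4 of 6 receptors reached 30 UMIs. Cyp26a1, which degrades retinoic acid and is a classical target of it, was picked after its values were seen and was at 0 and 3 UMIs. A list of 10 retinoic acid targets, which also holds Isx and Lrat, summed to 119 and 124 CPM in the epithelium.

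In enterocyte-like cells 3 of 36 list genes were called. Retsat was higher, 84.0 and 132 (0.65, 0.55 to 0.76), against 3.61% of genes, and Ttr, 3.63 and 1.94 (−0.90, −1.63 to −0.20), and Fabp5, 3.40 and 2.15 (−0.67, −1.37 to 0.02), were lower, against 3.35%. In absorptive progenitor-like cells 6 of 32 were called higher (among them Aldh1a1, Aldh1a7, Rbp2 and Retsat), against 4.27%, and 1 lower, against 3.83%. The lower one was Pnliprp2, picked after its values were seen, from 28 and 5 UMIs with an interval that included 0. The members and this list were chosen with results of these libraries known, so these counts describe the libraries and are no independent evidence.

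The differences in absorptive progenitor-like and enteroendocrine-like cells were recomputed with other sets of cells, clusters and scaling. Aldh1a1 in absorptive progenitor-like cells was past 1.5-fold in 11 of 12 alternatives, from 0.53 with a mitochondrial limit of 10% to 1.63 where the libraries were clustered separately. Rbp2 there was past it in 11 of 12, from 0.58 with a mitochondrial limit of 50% to 1.66 where the libraries were clustered separately. Scarb1 in enteroendocrine-like cells was lower in all 11, from −0.86 to −0.50, and past 1.5-fold in 9. Isx in enteroendocrine-like cells and Rbp2 in secretory progenitor-like cells changed sign in at least 1.

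**Figure D4:**
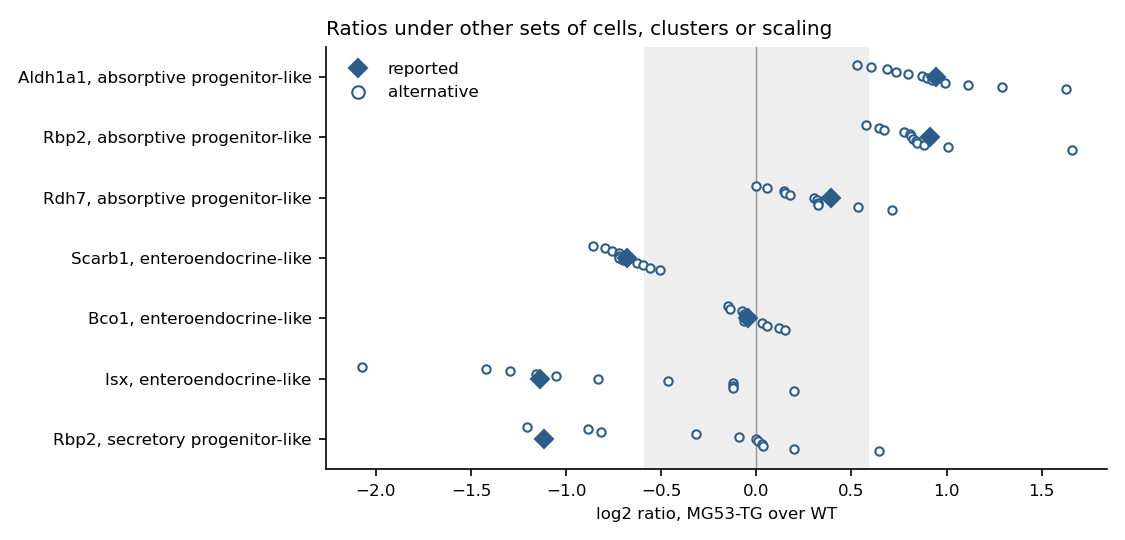
Log2 ratio of MG53-TG over WT for 7 gene and cell type pairs, as reported (diamonds) and under each alternative set of cells, clusters or scaling (open circles, spread vertically for sight). The grey band marks ratios within 1.5-fold. The circles of Aldh1a1 and of Rbp2 in absorptive progenitor-like cells lie right of the band but for 1 each, and those of Scarb1 left of 0, while those of Isx and of Rbp2 in secretory progenitor-like cells fall on both sides of 0.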

How the data were processed

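The authors processed each library with Cell Ranger (version 4 for WT and 6.0.1 for MG53-TG, per the file headers) on mm10, and their processing notes also name Seurat. The deposited tables hold UMI counts per gene and barcode, not normalized. The MG53-TG table lists only barcodes with at least 500 UMIs, so empty droplets could be read in WT alone. Barcodes were kept from 1354 UMIs (the inflection of the WT barcode curve) and 200 genes upward, with a mitochondrial share of up to 25%. The doublet scores of scanpy 1.11.5 (Scrublet) gave almost no automatic calls, so the highest-scoring 438 WT and 212 MG53-TG barcodes were removed, at 0.8% per 1000 cells. Cells of both libraries were clustered together (2000 variable genes without the 56 pathway genes, 30 principal components, 15 neighbours, Leiden resolution 1), and clusters were named from marker lists. A cluster stayed unnamed where fewer than 3 markers passed or its leading 10 genes held more markers of another type than of its own. A shallow cluster also stayed unnamed where none of its own markers was among those 10. UMIs were summed per type and library and divided by the total (CPM, per 1000000). Intervals are exact Poisson (levels), binomial (shares) and conditional binomial (ratios), and these functions were tested on simulated data. There were no replicates, intervals cover counting error only. Median depths in epithelial cells were 15666 UMIs in WT and 18655 in MG53-TG.

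Genes named beside the members were list genes with 30 UMIs that passed 1.5-fold in the epithelial sum or in enterocyte-like cells, possible read-sharing paralogs, and the 3 genes of highest correlation of log2(value + 1) with each member among genes reaching 10 CPM. Rbp4, Cyp26a1 and Pnliprp2 fall outside this rule. Members, lists and rules were chosen with earlier results of these data known. Coordinates are from GENCODE M21 and promoter sequences from RefSeq, both on GRCm38, and 7 of the 8 members had an entry. One gene of the pathway list and one of these correlated genes are not reported here by name.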

Additional observations from a re-analysis of the deposited data

Results flagged for a closer look

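Rbp2, the retinol carrier of absorptive cells, differed between the libraries in opposite directions in different cell types. Its log2 ratio of MG53-TG over WT was 0.91 in absorptive progenitor-like cells and −1.11 in secretory progenitor-like cells, both past 1.5-fold with intervals on 1 side of 0. The second value kept its sign in only 6 of 11 alternatives and was 0.65 at Leiden resolution 0.5, and 10 of 531 WT cells held 50% of its UMIs, so the opposite direction depended on the clustering and cell filters. With 1 library per genotype the difference between the types was not tested.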

How the results depend on the processing

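No paired analysis was possible because each genotype has 1 library, and no replicate could be left out. In the epithelial sum, median-of-ratios scaling moved every log2 ratio by −0.10, to 0.25 for Rbp2, 0.055 for Isx, 0.42 for Aldh1a1, 0.14 for Rdh7 and 0.056 for Rara. The mean of single-cell values gave 0.16 for Rbp2, −0.24 for Lrat, −0.27 for Bco1, 0.078 for Isx, 0.21 for Aldh1a1, 0.10 for Rdh7 and 0.051 for Rara. Thinning all cells to the UMI minimum gave 0.15 for Rbp2, 0.17 for Lrat, −0.80 for Scarb1, 0.058 for Isx, 0.40 for Aldh1a1, 0.038 for Rdh7 and −0.072 for Rara. Equal weight to each named type, with no minimum beyond 1 UMI in each library, gave 0.012 for Rbp2, −0.23 for Lrat, 0.29 for Scarb1, −0.17 for Isx, 0.34 for Aldh1a1 and −0.11 for Rdh7. Rbp2 was at 0.37 in cells with an Epcam and no Ptprc UMI, 0.34 and 0.31 with minimums of 500 and 3000 UMIs, and 0.29 and 0.36 with mitochondrial limits of 50% and 10%, under which Lrat was at 0.23 (50%) and Aldh1a1 at 0.60 (10%). The cause of these moves was not tested. Aldh1a1 kept its sign in all 10 of these alternatives. The count of 2 pathway genes past 1.5-fold was 1 at 2-fold, with a mitochondrial limit of 50% and without doublet removal, Rarg being that gene each time, and 3 with no filter but 1 UMI in each library.

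In enterocyte-like cells the signs of Rbp2, Lrat, Isx, Aldh1a1 and Rdh7 held in all 13 alternatives. A marker gate per thinned cell (988 WT and 687 MG53-TG cells) gave the largest Aldh1a1 log2 ratio, 0.84, and a mitochondrial limit of 10% took Bco1 to −1.40. The alternatives below were chosen after the data were seen. Rbp2 in secretory progenitor-like cells, −1.11, was at 0.035 with a minimum of 3000 UMIs, 0.20 with a mitochondrial limit of 10%, 0.011 without doublet removal, 0.65 at Leiden resolution 0.5 and 0.029 with the pathway genes kept for clustering. Isx in enteroendocrine-like cells, −1.14, was at 0.20 with each library clustered on its own. The smallest counts limit Bco1 and Scarb1 outside the enteroendocrine cells, where a few UMIs set each level.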
